A study of Mus musculus with 8 samples.

Results

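The genes described here encode Rab GTPases, other than the Rab3 and Rab27 proteins, in mouse sympathetic ganglia. Members were taken from the deposited count table by symbol: Rab, a number and at most 1 lower-case letter. The pattern found 57 of 23827 rows, and leaving out Rab3a to Rab3d, Rab27a and Rab27b gave 51 members. A Rab that the table lists under an older symbol of another form, as it does Rab29, was not a member. The set was named for endosomal traffic, but 16 of its 51 genes act mainly at the endoplasmic reticulum and Golgi, and 7 have another or an unsettled role. Those of the endosomes and the route to the cell surface numbered 28: 7 of early endosomes, 9 of recycling endosomes, 6 of late endosomes and lysosome-related organelles, and 6 of exocytic carriers. These groups come from background knowledge of each Rab's main compartment, and several Rabs act in more than 1.

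RNA with poly(A) tails was sequenced from the superior cervical ganglia of C57Bl6/n mice on postnatal day 1, with 1 library from the pair of ganglia of each animal. Control mice (n = 4) were KIF1Bb fl/fl :DBHcre -/-, and conditional knockout mice (cKO, n = 4) were KIF1Bb fl/fl :DBHcre +/-. Both groups thus carried loxP sites around the allele of KIF1B beta, a kinesin motor of axonal transport, and only cKO mice carried Cre. Cre under the Dbh promoter acts in noradrenergic cells, so the glia, vessels and connective tissue of the ganglion should keep the gene. Where recombination took place was not measured here, and any effect of Cre itself cannot be told apart from that of the deletion. The study's title links this motor to anterograde transport of the neurotrophin receptor TRKA. The comparison here asks whether transcripts of the vesicle traffic machinery differed between cKO and control ganglia.

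Rab proteins are small GTPases that give membranes their identity. Exchange factors load them with GTP on a particular compartment, where they recruit motors, tethers and other effectors, and GTPase-activating proteins switch them off again. In sympathetic neurons, endosomes that carry Rab5 and then Rab7 are known to take activated TRKA from axon tip to cell body, and Rab11 endosomes bring receptors out to the axon.

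Libraries held between 16214912 and 18114418 counts. Kif1b, the targeted gene, averaged 1224 ± 222 CPM in control ganglia (counts relative to the TMM-scaled library total; SD, n = 4). In cKO ganglia it averaged 260 ± 52.7 CPM (SD, n = 4), with every cKO library below every control library (two-sided exact permutation p = 0.0286, the smallest that 70 assignments allow). The tissue markers Th and Dbh stood at 1344 ± 107 and 2421 ± 195 CPM in control ganglia (SD, n = 4). Summed markers of noradrenergic neurons, vessels and fibroblasts separated by group. The summed level of 14 noradrenergic markers was between 20701 and 21345 CPM in control and between 17425 and 18444 CPM in cKO libraries, while 11 vessel markers summed to between 298 and 358 CPM and between 478 and 574 CPM, and 8 fibroblast markers to between 3606 and 4515 CPM and between 4852 and 7357 CPM. Glial markers (11 genes) summed to between 1309 and 1635 CPM in control and between 1605 and 1809 CPM in cKO libraries. The summed ranges of glial, macrophage, muscle and cartilage, and sensory neuron markers overlapped between the groups, and no listed marker was at 0 throughout. Taken singly, 5 of the 11 glial markers did not overlap, all higher in cKO. Single markers passed the test, all higher in cKO, in the vessel list (5 of 11 tested), the fibroblast list (4 of 8) and the glial list (1 of 11), and 0 of 14 noradrenergic, 0 of 10 macrophage, 0 of 5 muscle and cartilage and 0 of 5 sensory neuron markers passed. In RNA from whole ganglia, fewer cells of a type and less RNA per cell cannot be told apart, and the part of these shifts in the values of the Rab genes was not tested.

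No member passed the test between cKO and control ganglia. Of 51 members 46 had counts high enough to be tested, and 0 of these had an adjusted p below 0.05 in edgeR's quasi-likelihood test, where 2.72% of all 14592 tested genes did. An unadjusted p below 0.05 was found for 7 members (15.2%), against 16.8% of all tested genes. The control and cKO libraries did not overlap in 6 members (13.0%), 3 higher and 3 lower in cKO, against 11% of all tested genes. These shares lay near those of the table as a whole. The median log2 fold change was 0.01 over the members, 24 of them above and 22 below 0, and 0.00 over all genes.

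For most members the data bounded the difference. The 95% interval of the fold change lay wholly within 1.5-fold in either direction for 37 of 46 members (80.4%) and for 58.9% of all tested genes. The log2 fold change itself was smaller than 0.2 in size for 35 members (76.1%) and for 60.5% of all tested genes. The median SE was 0.122 over the members and 0.1557 over all tested genes, and levels were not matched in these comparisons. The 9 members whose interval reached 1.5-fold were Rab6b, Rab9b, Rab13, Rab20, Rab32, Rab37, Rab38, Rab39 and Rab44, so for these a change of that size remained possible in at least 1 direction.

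**Figure D1:**
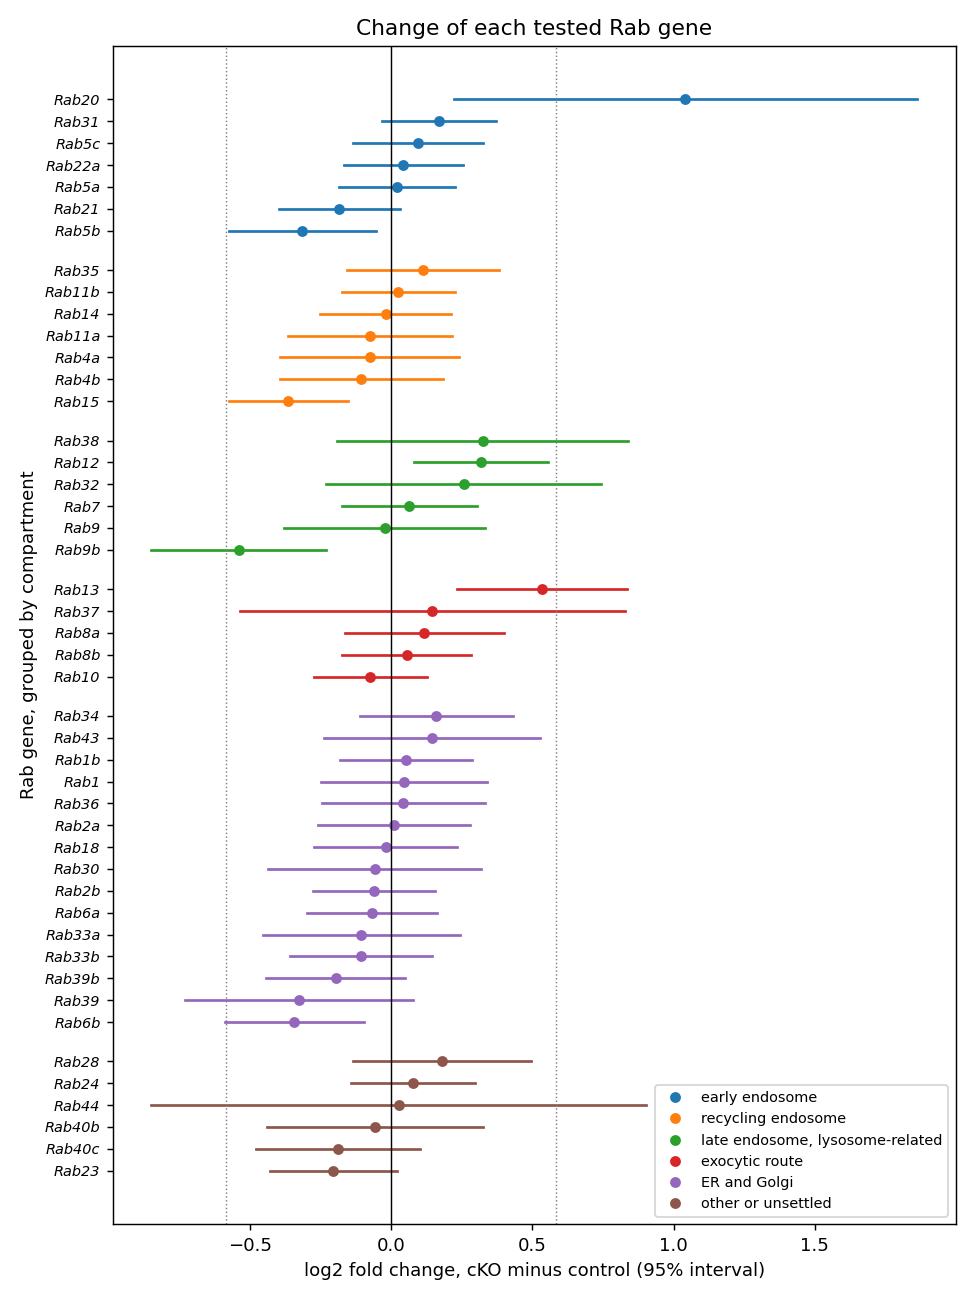
Log2 fold change (cKO minus control) of each of the 46 tested Rab genes, with its 95% interval, grouped by main compartment; the dotted lines mark 1.5-fold. Most points lie near 0, and the intervals of 37 genes stay between the dotted lines.

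Levels between genes were compared as CPM per kilobase of exon (GENCODE basic transcripts). Rab6b, a neuron-enriched Rab of Golgi and retrograde transport, led with 269 ± 21.0 CPM per kilobase in control ganglia (SD, n = 4), and its ubiquitous paralogue Rab6a followed with 210 ± 17.6 CPM per kilobase (SD, n = 4). Next came Rab2a with 152 ± 14.1 CPM per kilobase and Rab1, the gene now called Rab1a, with 113 ± 12.4 CPM per kilobase (SD, n = 4 each), both of the route between endoplasmic reticulum and Golgi. The 3 highest genes belong to the group of the endoplasmic reticulum and Golgi, and the place of Rab1 was not resolved, since its control range overlapped that of Rab11a. The recycling Rab Rab11a (111 ± 12.9 CPM per kilobase), the exocytic Rab10 (106 ± 7.93) and the recycling Rab Rab14 (99.1 ± 6.76) followed, each overlapping the next in its control range, while Rab14 stood apart from Rab1b below it. Among 50 pairs of neighbours the control ranges overlapped in 37 and stood apart in 13, so much of the order is not resolved by 4 libraries. It also depends on the transcript models: with all annotated transcripts in place of the basic set, Rab14 moved from rank 7 to rank 17 and Rab5a from rank 11 to rank 19. Rab10 then took rank 4 and Rab1 rank 6, and the first 3 genes had the same ranks.

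**Figure D2:**
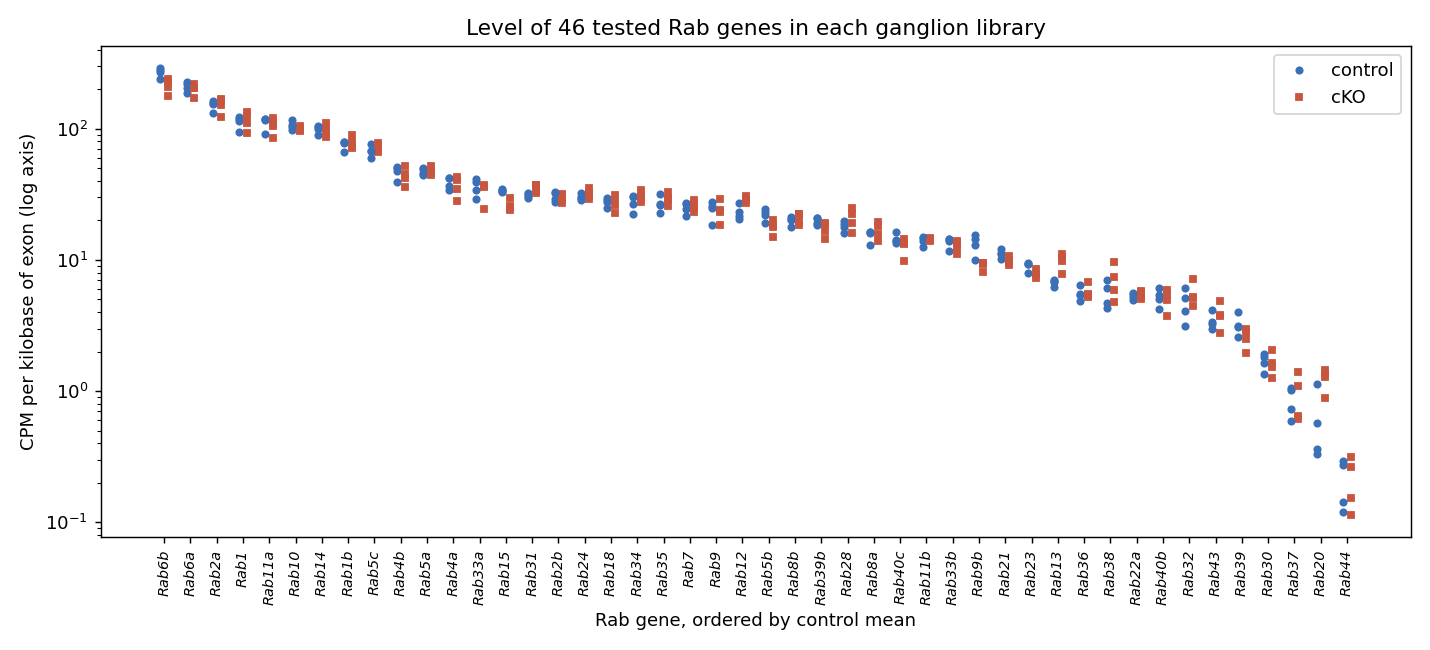
Level of each tested Rab gene in CPM per kilobase of exon (log axis), with a point for each control library (circles) and each cKO library (squares), ordered by control mean. Rab6b, Rab6a and Rab2a lead, and the points of the 2 groups intermingle for most genes.

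The members together made up between 0.543% and 0.592% of counts in control libraries and between 0.523% and 0.579% in cKO libraries. Rab6a and Rab6b alone supplied between 33.3% and 37.3% of these counts in control and between 29.2% and 34.7% in cKO ganglia. On the TMM scale the members summed to between 5617 and 6038 CPM in control and between 5164 and 5604 CPM in cKO libraries. These sums did not overlap, though the lowest control sum stood only just above the highest cKO sum, and the difference was not tested. The 5 members that were too low to test never exceeded 12 counts in any library: Rab42 reached 12, the epithelial Rab25 reached 9, the granule Rab26 reached 8, Rab19 reached 6 and the epithelial Rab17 reached 1. At these counts no difference was detectable. Exons of 8 members, among them Rab5a, Rab6a, Rab7 and Rab10, overlap another gene of the table, so their counts are less certain.

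Early endosomes are organised by the 3 Rab5 proteins, which drive fusion of incoming vesicles. Rab5a had 108, 116, 105 and 118 CPM in control and 105, 124, 111 and 113 CPM in cKO libraries, numbered 1 to 4 in this order here and throughout. The groups overlapped fully (log2 fold change 0.02, SE 0.09, 95% interval -0.19 to 0.22, edgeR adjusted p = 0.958). Rab5c, the most abundant of the 3 per kilobase, had 151, 117, 132 and 132 CPM in control and 146, 131, 138 and 153 CPM in cKO libraries. It also overlapped, with a log2 fold change of 0.09 (SE 0.10, adjusted p = 0.743). Rab5b had 77.4, 74.0, 61.0 and 69.4 CPM in control and 64.1, 47.5, 58.3 and 56.3 CPM in cKO libraries. Its highest cKO library lay just above its lowest control library, and its log2 fold change of -0.32 (SE 0.12) did not pass (adjusted p = 0.202).

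Rab21, which follows integrins into early endosomes, had 51.1, 61.5, 56.8 and 55.9 CPM in control and 46.5, 49.3, 48.5 and 54.0 CPM in cKO libraries (log2 fold change -0.18, SE 0.10, adjusted p = 0.388). Rab22a, which links early and recycling endosomes, had 40.0, 35.9, 37.5 and 39.9 CPM against 38.3, 41.9, 41.3 and 36.5 CPM (log2 fold change 0.04, SE 0.10, adjusted p = 0.901). Both genes overlapped between the groups. Rab31, a close relative of Rab22a that acts between Golgi and endosomes, had 112, 122, 117 and 124 CPM in control and 124, 142, 142 and 127 CPM in cKO libraries. Its groups touched without overlapping, with control 4 and cKO 1 both at 124 CPM after rounding, and the log2 fold change of 0.17 (SE 0.09) did not pass (adjusted p = 0.405).

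Rab20 showed the widest ratio of the 46 tested members and the lowest level among the early endosomal genes. It had 1.59, 0.501, 0.458 and 0.790 CPM in control and 2.00, 1.79, 1.87 and 1.24 CPM in cKO libraries, from at most 35 counts in a library. Control 1 lay above cKO 4, so the groups overlapped. The log2 fold change was 1.04 (SE 0.37, 95% interval 0.22 to 1.86, adjusted p = 0.178). Without control 1 it was 1.55 with an adjusted p of 0.027, so the call turned on that library. Leaving out control 2, 3 or 4 instead gave edgeR adjusted p of 0.421, 0.308 and 0.369 for Rab20. Its log2 fold changes were then 0.87, 0.84 and 1.02. These settings gave 79, 249 and 74 calls over all genes, against 397 with all 8 libraries, so adjusted p rose across the table.

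Promoter windows from RefSeq (GRCm38.p6, 250 bases before to 50 after the gene start) were at hand for 42 members. They held a median of 23 CG dinucleotides, against 20 in the windows of 11265 tested genes. The palindrome TCACGTGA, the core of the element that TFEB and its relatives bind in lysosomal genes, was chosen for a search after the values were known and stood in 3 of 42 windows (7.14%), against 1.8% of the tested genes, a difference that was not tested. The shorter CACGTG inside it stood in 5 members' windows (11.9%), against 9.92%. TATAAA was found in 3 members' windows (7.14%), against 7.11% (both strands were searched for each). The 3 windows with the palindrome are shown because they belong to 2 early endosomal Rabs and to Rab24, a Rab linked to autophagy. They are printed 5′ to 3′ on the gene's strand, with the palindrome in capitals. In Rab5a (chr17:53479127-53479156, plus strand) the palindrome lies 96 to 89 bases before the start, and in Rab21 (chr10:115315604-115315633, minus strand) 31 to 24 bases before it. In Rab24 (chr13:55321961-55321990, minus strand) it occupies bases 2 to 9 after the RefSeq start, and the GENCODE gene begins downstream of the window.
Rab5a: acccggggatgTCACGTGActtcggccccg
Rab21: gcccaccgcggTCACGTGAcgaggggtgtg
Rab24: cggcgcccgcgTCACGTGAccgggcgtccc
A match of letters is a description of the window and not a binding site. The 3 genes had log2 fold changes of 0.02, -0.18 and 0.08, and none passed.

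Recycling endosomes return receptors to the surface, quickly through Rab4 and more slowly through Rab11. Rab11a had 214, 270, 276 and 278 CPM in control and 198, 284, 246 and 257 CPM in cKO libraries. Library 1 was the lowest of each group by a wide margin, and the groups overlapped (log2 fold change -0.08, SE 0.13, 95% interval -0.37 to 0.22, adjusted p = 0.858). Rab11b, its neuron-rich paralogue, had 90.4, 77.2, 85.0 and 91.3 CPM against 87.1, 87.8, 89.8 and 85.0 CPM, with a log2 fold change of 0.02 (SE 0.09, adjusted p = 0.944). Rab4a had 59.5, 64.4, 74.3 and 73.4 CPM in control and 49.0, 71.5, 61.3 and 75.7 CPM in cKO libraries, again overlapping (log2 fold change -0.08, SE 0.14, adjusted p = 0.871). Rab4b, Rab14 and Rab35 had log2 fold changes of -0.11, -0.02 and 0.11.

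Rab15, a Rab of endocytic recycling that is rich in neural tissue (chromosome 12, 76797960 to 76822908, minus strand, GRCm38) had the smallest p of the recycling genes. It had 120, 124, 125 and 121 CPM in control and 90.5, 87.7, 93.1 and 108 CPM in cKO libraries. Every cKO library lay below every control library, and the control libraries were the closest together of any tested member (SD of 0.031 on the log2 CPM scale). The mean went from 122 ± 2.63 to 94.9 ± 9.25 CPM (SD, n = 4 each), a log2 fold change of -0.36 (SE 0.10, 95% interval -0.58 to -0.15) that did not pass (adjusted p = 0.0716). It passed when cKO 4, the highest cKO library, was left out (log2 fold change -0.44, adjusted p = 0.0445). Leaving out control 1, 2, 3 or 4 instead gave edgeR adjusted p of 0.0885, 0.197, 0.138 and 0.206 for Rab15. Its log2 fold changes were then -0.38, -0.36, -0.36 and -0.37.

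Late endosomes and lysosomes are marked by Rab7, and Rab9 serves the way back from late endosomes to the Golgi. Rab7 had 55.9, 64.2, 70.5 and 69.3 CPM in control and 61.0, 75.0, 69.1 and 66.5 CPM in cKO libraries. The groups overlapped, with a log2 fold change of 0.06 (SE 0.11, 95% interval -0.18 to 0.30, adjusted p = 0.855). For Rab9 the log2 fold change was -0.02 (SE 0.16). The melanosome Rabs Rab32 and Rab38, at 9.88 and 8.72 CPM in control ganglia, stood at 0.26 (SE 0.22) and 0.32 (SE 0.23) on the same scale.

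Rab9b, a paralogue of Rab9 and X-linked like it (chromosome X, 136858147 to 136868755, minus strand, GRCm38), had 39.5, 61.6, 57.4 and 52.0 CPM in control and 32.2, 38.0, 37.0 and 37.4 CPM in cKO libraries. All 4 cKO libraries lay below all 4 control libraries, although control 1 stood only just above them. The log2 fold change was -0.54 (SE 0.14, 95% interval -0.85 to -0.23) and did not pass in edgeR without a block (adjusted p = 0.069). With all 8 libraries it passed in the Wald test of DESeq2 (adjusted p = 0.01) and in edgeR with a block for the label number (-0.53, adjusted p = 0.027). Without control 1 it was -0.66 and passed (adjusted p = 0.0154). Leaving out control 2, 3 or 4 instead gave edgeR adjusted p of 0.215, 0.146 and 0.188 for Rab9b. Its log2 fold changes were then -0.46, -0.50 and -0.55.

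Rab12, which takes receptors such as that for transferrin from recycling endosomes to lysosomes, had 55.9, 48.2, 42.7 and 44.9 CPM in control and 59.1, 63.1, 60.7 and 56.0 CPM in cKO libraries. Control 1 at 55.9 and cKO 4 at 56.0 CPM kept the groups barely apart. Its log2 fold change of 0.32 (SE 0.11) did not pass (adjusted p = 0.156).

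Of the exocytic Rabs, Rab13, known for traffic to cell junctions of epithelia and endothelia (chromosome 3, 90213695 to 90226385, plus strand, GRCm38), had the smallest p of all members. It had 11.6, 11.3, 11.5 and 10.2 CPM in control and 12.9, 17.2, 16.1 and 18.3 CPM in cKO libraries. Every cKO library was higher than every control library, with cKO 1 closest to them. The mean went from 11.1 ± 0.671 to 16.1 ± 2.35 CPM (SD, n = 4 each), a log2 fold change of 0.53 (SE 0.14, 95% interval 0.23 to 0.83, adjusted p = 0.0654). Without cKO 1 it was 0.61 with an adjusted p of 0.0385. Leaving out control 1, 2, 3 or 4 instead gave edgeR adjusted p of 0.08, 0.179, 0.115 and 0.215 for Rab13. Its log2 fold changes were then 0.55, 0.54, 0.54 and 0.49. Rab8a, Rab8b and Rab10, which carry cargo from the Golgi and recycling endosomes to the surface, had log2 fold changes of 0.12, 0.05 and -0.07.

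**Figure D3:**
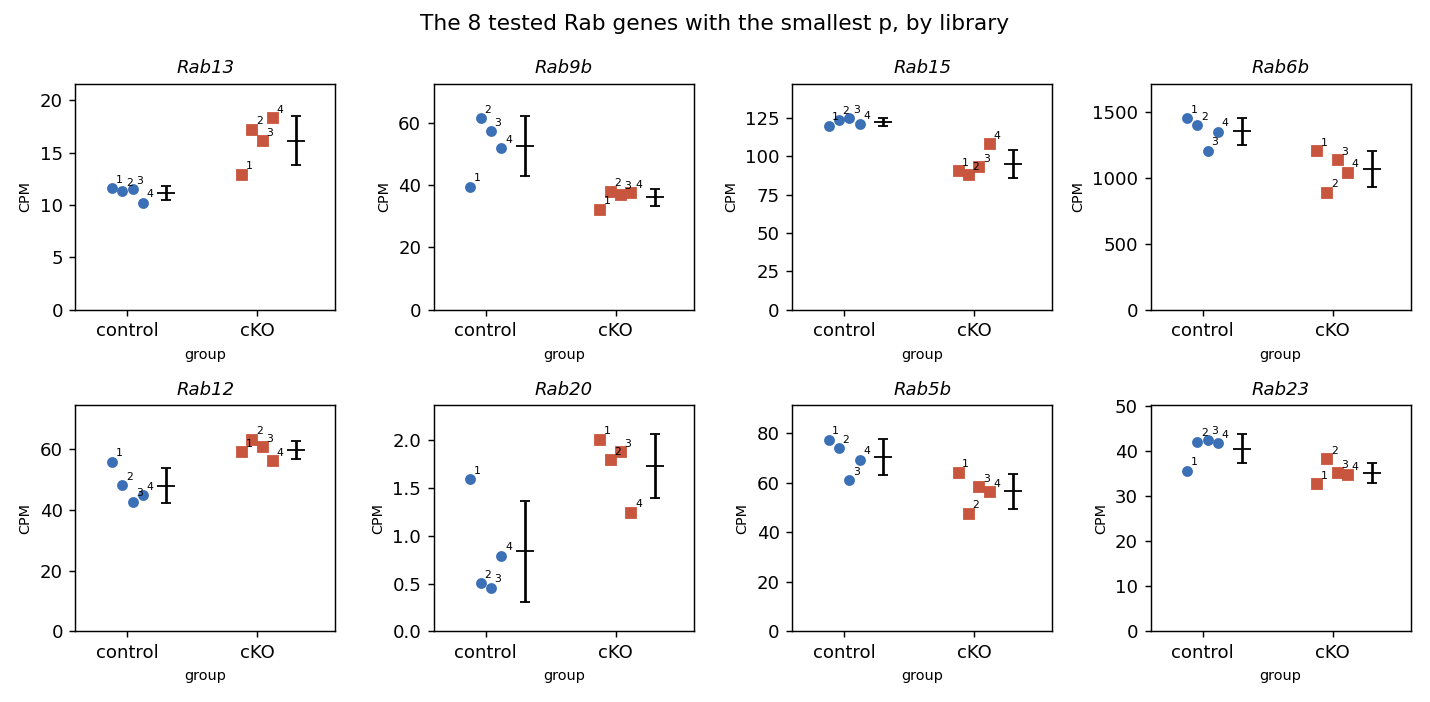
CPM of the 8 tested Rab genes with the smallest p in each library (numbers are the library numbers), with mean and SD (bars, n = 4 per group). Rab13, Rab9b, Rab15, Rab6b and Rab12 show no overlap between groups, and none of the 8 passed after adjustment.

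At the Golgi, the abundant Rab6b (chromosome 9, 103111787 to 103185276, plus strand, GRCm38) had 1453, 1398, 1207 and 1350 CPM in control and 1200, 887, 1135 and 1040 CPM in cKO libraries. The lowest control library was 1207 and the highest cKO library 1200 CPM, so the groups were separated by less than the spread within either. The log2 fold change was -0.34 (SE 0.11, 95% interval -0.59 to -0.10) and did not pass (adjusted p = 0.141). Rab6a had 644, 782, 702 and 752 CPM against 591, 749, 705 and 702 CPM, overlapping, with a log2 fold change of -0.07 (SE 0.10, adjusted p = 0.831).

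Rab2a, which acts on Golgi and late endosomal membranes, had 280, 331, 349 and 333 CPM in control and 262, 362, 322 and 354 CPM in cKO libraries (log2 fold change 0.01, SE 0.12, adjusted p = 0.985). Rab1 had 268, 348, 325 and 333 CPM against 263, 381, 315 and 356 CPM (log2 fold change 0.05, SE 0.13, adjusted p = 0.927). In both genes library 1 was the lowest of each group, and the distance from it to the other libraries was greater than the difference between group means. The other 11 tested genes of the Golgi group had log2 fold changes from -0.33 (Rab39) to 0.16 (Rab34). Among genes with another role, Rab23, a brake on Hedgehog signalling, had 35.7, 42.1, 42.5 and 41.8 CPM in control and 32.7, 38.2, 35.1 and 34.6 CPM in cKO libraries. It overlapped, with a log2 fold change of -0.21 (SE 0.10, adjusted p = 0.351).

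By compartment, the median log2 fold changes were 0.04 for 7 tested early endosomal genes, -0.08 for 7 recycling genes, 0.16 for 6 late endosomal genes, 0.12 for 5 exocytic genes, -0.06 for 15 Golgi genes and -0.02 for 6 others. No group had a called gene in either direction.

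The balance within sets of paralogues was read from each paralogue's share of the set's CPM per kilobase. Rab11a supplied 88.6 ± 1.76% of the Rab11 level in control and 87.9 ± 1.68% in cKO ganglia (SD, n = 4 each), and Rab2a supplied 83.1 ± 1.65% and 83.7 ± 1.41% of the Rab2 level. In both sets the group means differed by less than the SD of either group. In the Rab9 pair, Rab9b supplied 35.0, 38.4, 34.5 and 33.8% in control and 30.6, 24.9, 28.5 and 28.0% in cKO libraries, every cKO share below every control share. In the Rab5 set the share of Rab5b was 16.6, 17.7, 14.7 and 15.8% in control and 14.5, 11.2, 13.5 and 12.4% in cKO libraries, also without overlap. Rab6b supplied 56.1 ± 3.02% and 51.3 ± 5.54% of the Rab6 level (SD, n = 4 each), with overlap. Outside the Rab9 and Rab5 sets, the shares of every set of paralogues overlapped between the groups. The shares of Rab9b and Rab5b come from the same counts as their fold changes and are not separate evidence. Shares were not tested, they depend on the transcript lengths used (Rab5a supplied 34.5% of the control Rab5 level with basic transcripts and 21.6% with all transcripts), and reads that match several paralogues or their pseudogenes may have been split or dropped in counting.

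**Figure D4:**
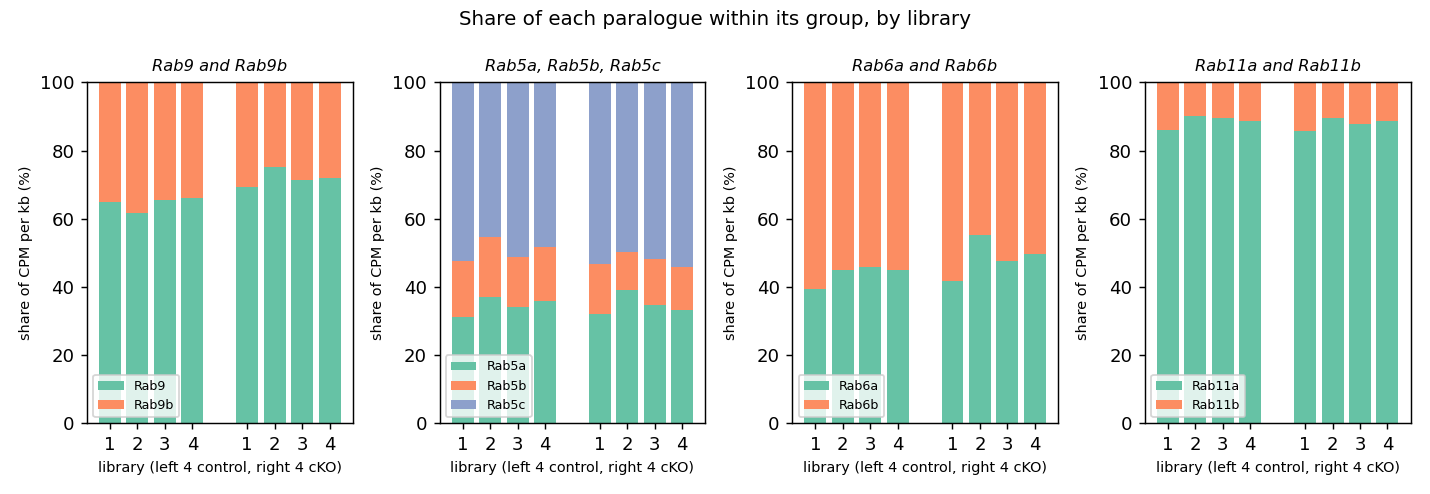
Share (%) of each paralogue in the summed CPM per kilobase of its set, for each of the 4 control and 4 cKO libraries. The share of Rab9 is larger in each cKO library than in each control library, and Rab11a supplies between 85.6% and 90.1% of its set in all 8.

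The libraries numbered 1 often stood at the same end of their groups. In 28 of 46 tested members (60.9%) library 1 was the lowest or the highest of both groups, 20 times the lowest and 8 times the highest, and this held for 47% of all tested genes. Among the 20 were Rab1, Rab2a, Rab4a, Rab6a, Rab7, Rab9, Rab11a and Rab14, and among the 8 were Rab5b, Rab6b, Rab20 and Rab35. The libraries numbered 2 shared an end in 13 members (28.3%, against 16.9% of all tested genes). Those numbered 3 did so in 1 member (2.17%, against 5%) and those numbered 4 in 3 members (6.52%, against 8.38%). The summed level of the muscle and cartilage markers was also highest in library 1 of each group. It reached 106 CPM (control 1) and 194 CPM (cKO 1), against at most 73.3 CPM in the others. The largest parts came from Acta1 (35.5 and 109 CPM) and Col11a1 (52.2 and 63.3 CPM), control 1 given first. Col2a1, Actc1 and Myog were also highest in library 1 of both groups. Acan was lowest there in both, and Myh3 and Matn1 did not lead in both. The part of this summed level in the Rab values was not tested. Leaving out both libraries numbered 1 gave calls for 3 members, Rab9b (log2 fold change -0.61, adjusted p = 0.0191), Rab13 (0.65, 0.0329) and Rab20 (1.47, 0.0455), against 2.99% of all genes tested in those 6 libraries. The Wald test of DESeq2 on all libraries called 3 of 46 members, Rab9b (adjusted p = 0.01), Rab13 (0.0105) and Rab15 (0.00425), where it called 6.95% of all genes. Members varied less between control libraries than the table as a whole, with a median SD of 0.15 on the log2 CPM scale against 0.2. Levels were not matched in this comparison. The widest SDs among members were those of Rab20 (0.72) and Rab44 (0.575), at control means of 0.836 and 0.974 CPM.

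No gene in the lists of Rab partners passed the test. Prenylation anchors Rabs in membranes, and GDP dissociation inhibitors keep the inactive forms soluble. In the list of genes for these steps 0 of 8 tested genes passed. The 2 with the smallest p were Chml, an escort protein, and Rabggtb, a prenyltransferase subunit. Their log2 fold changes were -0.25 (SE 0.14) for Chml and -0.09 (SE 0.13) for Rabggtb. Among exchange factors 0 of 36 passed, led by Mon1a, part of the Rab7 exchange factor, at -0.29 (SE 0.10, adjusted p = 0.172). Madd, a Rab3 exchange factor that also binds KIF1B beta, averaged 162 ± 17.3 CPM in control mice against 128 ± 22.2 CPM in cKO mice (SD, n = 4 each), a log2 fold change of -0.34 (SE 0.14, adjusted p = 0.242).

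Of 35 tested GTPase-activating proteins none passed. On the log2 scale Tbc1d10a differed by 0.33 (SE 0.11) and Tbc1d2b by 0.34 (SE 0.11), and the list's median was -0.13 with 10 genes above and 25 below 0. Of 39 tested effectors none passed, and the median was -0.09 with 9 above and 30 below 0. The smallest p there belonged to the gene for the Rab7 effector Rubicon, listed as 1700021K19Rik (log2 fold change -0.32, SE 0.13, adjusted p = 0.232), and to Ehd3 of recycling endosomes (-0.25, adjusted p = 0.277). The early endosomal tether Eea1 and the Rab5 effector Appl1 stood at -0.15 (SE 0.15) for Eea1 and -0.09 (SE 0.11) for Appl1. Of 17 tested retromer and tethering genes none passed, with Vps8 at -0.20 (SE 0.10) and Vps26b at -0.14 (SE 0.08). These medians stand beside 0.00 over all genes, and 7309 of 14592 genes lay below 0.

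Among the 6 Rab3 and Rab27 genes that the selection leaves out, which serve secretory vesicles, Rab3c passed: it went from 323 ± 22.2 to 207 ± 18.2 CPM (SD, n = 4 each; log2 fold change -0.64, SE 0.10, adjusted p = 0.011). Rab3a stood at -0.14 (SE 0.12) and Rab3b at -0.07 (SE 0.14) on the log2 scale, both with overlapping groups. Rab3d (-0.40, SE 0.10, adjusted p = 0.0649), Rab27b (-0.52, SE 0.15, adjusted p = 0.0995) and Rab27a (0.28, SE 0.11, adjusted p = 0.23) did not pass, but their groups did not overlap. Groups without overlap were thus found in 4 of these 6 genes, against 11% of all tested genes. Whether these secretory Rabs differ from the other Rabs in their response was not tested.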

How the data were processed

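Per the submitters' processing notes, the authors aligned reads with STAR to mm10. The deposited table holds whole-number counts per gene symbol. The aligner's version, counter, annotation and strandedness were not given in the sources used here. Columns were matched to animals by sample title. Coordinates and exon lengths come from GENCODE vM21 (GRCm38), in which all 51 members were matched, Rab1 through its RefSeq synonym.

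All rows were fitted together in edgeR 4.0.16 (R 4.3.3; TMM, filterByExpr, robust quasi-likelihood fit, group as sole term), with Benjamini-Hochberg adjustment over 14592 genes. SE is the absolute log2 fold change over the root of F, and 95% intervals use its t quantile. Log2 CPM used a prior count of 2. The fit was tested on simulated data. Replicates differed by more than sampling noise (chi-square per gene from 8.01 to 58.6). Alternatives were DESeq2 1.42.0 (test and size factors), limma voom 3.58.1, library size scaling, 2 other filters, a block for the label number, and libraries left out. Same-numbered libraries were not treated as pairs, since the labels do not link them and their deviations correlated at 0.725, 0.352, -0.302 and 0.265. Named genes were those with adjusted p below 0.05, the 10 smallest p, the 5 highest levels and 7 receptor-route Rabs; of each partner list, passing genes or the 2 with the smallest p. Members and lists were chosen with earlier results of these data known, and Eea1 and Appl1 were named beyond the rule, as was the promoter search.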

Additional observations from a re-analysis of the deposited data

Results flagged for a closer look

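Among 92 sets of 4 libraries (46 tested members, 2 groups), 5 held a library far from the other 3, where chance alone marks about 1 in 20. The measure is the gap to the nearest library divided by the whole range. Control 1 was far below the others for Rab11a (0.88, 214 CPM against 270 to 278), Rab8a (0.888, 59.5 CPM against 73.0 to 74.7) and Rab23 (0.886, 35.7 CPM against 41.8 to 42.5). For Rab33a, cKO 1 was far below (0.892, 28.5 CPM against 41.4 to 42.9), and for Rab1b it was control 2 (0.894, 134 CPM against 156 to 159). Of the 5, 4 lie in a library numbered 1, and the cause was not tested.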

How the results depend on the processing

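The count of called Rab genes, 0 of 46 with edgeR, was 3 with the Wald test of DESeq2, 1 with a block for the label number (Rab9b, log2 fold change -0.53, adjusted p = 0.027), 3 without both libraries numbered 1, and between 0 and 2 with 1 library left out. It stayed at 0 with limma voom, the size factors of DESeq2, library size alone, the other 2 filters and without both libraries numbered 4. Over all genes the block gave 687 calls in place of 397; same-numbered libraries are not known to be pairs, and correlations of their deviations ranged from -0.302 to 0.725. The Wald test of DESeq2 gave 1012 calls over all genes, and leaving out control 2, control 3, control 4, cKO 2 or cKO 3 gave 79, 249, 74, 147 and 137, while leaving out both libraries numbered 4 gave 65. Kif1b passed in every setting. The median of the Rab genes ranged from -0.0481 to 0.0199 with 1 library left out. Signs of genes near 0 turned. With library size alone Rab14, Rab18 and Rab9 were at 0.0278, 0.03 and 0.0245. Without both libraries numbered 1, Rab18 and Rab44 were at 0.002 and -0.0728. Without both numbered 4, Rab14, Rab2a, Rab30 and Rab37 were at 0.0164, -0.0203, 0.1194 and -0.0182. With 1 library left out, ranges crossed 0 for Rab1 (-0.0356 to 0.1268), Rab11a (-0.1638 to 0.003), Rab11b (-0.0243 to 0.0538), Rab14 (-0.0826 to 0.0241), Rab18 (-0.0906 to 0.0406), Rab1b (-0.0166 to 0.0904), Rab2a (-0.0606 to 0.086), Rab30 (-0.2001 to 0.0462), Rab33a (-0.1994 to 0.0026), Rab36 (-0.0661 to 0.1145), Rab37 (-0.1137 to 0.2995), Rab40b (-0.1484 to 0.045), Rab43 (-0.0125 to 0.265), Rab44 (-0.242 to 0.2427), Rab4a (-0.1641 to 0.0199), Rab5a (-0.0273 to 0.044), Rab7 (-0.0088 to 0.1008) and Rab9 (-0.1384 to 0.0674). Depth limits Rab20, Rab37 and Rab44 most, at up to 35, 73 and 26 counts in a library.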
